A study of Solanum pimpinellifolium with 6 samples.

Results

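The AP2/ERF transcription factors of young tomato fruits were described in RNA sequencing data from the wild currant tomato Solanum pimpinellifolium, strain LA1589. Genes were taken by words of the deposited gene description that name an ethylene-responsive transcription factor, an ethylene response factor, an AP2-like or AP2 domain protein or a dehydration-responsive element binding protein, leaving out AP2a (Solyc03g044300). The words matched 170 of 34723 genes with values. One match, Solyc02g084970, is described as a PAP2 domain protein with a phosphatidic acid phosphatase domain and is not of the family. It did not pass the test (log2 fold change -1.04, limma adjusted p = 0.362) and was left out of the counts, so that 169 members remain. Their label held against the domains listed in the descriptions: 160 list the AP2/ERF DNA-binding domain, 6 list a B3 domain and 3 list none. Another 6 genes that list the AP2/ERF domain are not members, AP2a by the exception above and others, such as the cold-response gene CBF1 (Solyc03g026280), because of their names.

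AP2/ERF proteins are plant transcription factors that bind DNA through the AP2 domain. ERF proteins typically bind the GCC box of promoters and act downstream of the EIN3-like factors of ethylene signalling, while DREB proteins bind dehydration-responsive elements and AP2-like proteins carry a pair of AP2 domains and mostly act in meristems and organ growth. In tomato, members of the family are known from defence, fruit ripening, cuticle formation, abscission and the synthesis of steroidal glycoalkaloids, the bitter defence compounds of green fruit.

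The 6 libraries were made from fruits collected 2 days after anthesis from hand-pollinated flowers of 2-month-old plants. By the labels, 3 came from transgenic RNAi line 207, whose target was read from the series title as the zinc finger gene SlZFP2, and 3 from its nontransgenic sibling, with wild type given as genotype. These 2 groups are called labelled line 207 and labelled sibling. All plants shared the strain and the growth room, and line 207 is 1 transgenic line. A protocol label names shoot tips as the extracted tissue, whereas the sample labels name fruits. The values of the target itself ran against the labels, without a call. SlZFP2 (Solyc07g053570) measured 2.89, 3.05 and 0.00147 FPKM where the label reads sibling, and 10.3, 9.03 and 7.45 FPKM where it reads line 207. This low gene did not pass the test (limma adjusted p = 0.112). Every direction below is given as one between labels.

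FPKM counts fragments per length of transcript and depth of library. The depth of the libraries relative to sibling replicate 1 was read from the steps between low values. It was 0.807 for sibling replicate 2, 0.865 for sibling replicate 3, and 0.384, 0.497 and 0.776 for line 207 replicates 1 to 3. Each is the most frequent ratio, held by 25 to 44 of 2371 to 2977 genes, so these are rough estimates. Correlations of log2(FPKM + 1) were 0.779 to 0.86 within groups and 0.694 to 0.755 between them. Of the shoot meristem markers, CLV3 was listed at 0 in all 6 libraries, WUS was above 0 in 1 library and TKN2 reached 5.84 FPKM. Of the carpel and ovule markers, TAG1 lay at 16.7 to 24.4 FPKM in the sibling-labelled libraries and 60.6 to 90.6 in labelled line 207. It was called higher (log2 fold change 1.72, limma adjusted p = 0.00877). TAGL11 was at 5.33 FPKM in sibling replicate 3 and at 0.00092 FPKM or less in the others, and MBP3 was at 7.55e-05 FPKM or less throughout. TAGL1, of the same list, was at 28.2, 0.000922 and 30.9 FPKM in the sibling-labelled libraries and at 72.0, 70.9 and 0.0124 in labelled line 207, with overlapping groups (adjusted p = 0.833). The 3 petal and stamen markers were present, with a summed level of 149 to 160 FPKM in the sibling-labelled libraries and 171 to 176 in labelled line 207. TAP3 and TM6 made up most of the sum and overlapped between groups. TPI was at 0.987, 2.6 and 2.36 FPKM under the sibling label and at 2.7, 8.38 and 7.75 under the line 207 label. Its groups did not overlap, without a call (limma adjusted p = 0.242). The pollen gene LAT52 was at 7.58, 37.2 and 39.4 FPKM against 6.71, 7.87 and 8.24. The part of these tissues in the results below was not tested, and fewer cells of a type and less RNA per cell cannot be told apart in such samples. EIN2, a signalling gene that all tissues are thought to use, was at 0.0529 FPKM or less everywhere, so an exact 0 is given here only as the listed value.

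In all, 66 of the 169 genes were listed at 0 in every library, as were 12373 of the 34723 genes with values. A further 22 had some signal but did not reach 1 FPKM in 3 libraries, and 81 were tested. Among the 81, 6 passed as higher and 3 as lower under the line 207 label (limma on log2(FPKM + 1), Benjamini-Hochberg adjusted p at most 0.05 over 15766 genes). These are 7.41% and 3.7% of the tested members. Over all tested genes 10.1% were called, 5.01% as higher and 5.04% as lower, so the shares of calls in the family were near the background. The count of higher genes was 2 without line 207 replicate 1 or replicate 2, and the count of lower genes was 1 without sibling replicate 2.

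Over the tested members the directions were uneven. The log2 fold change was positive for 51 and negative for 30 of the 81 tested members, with a median of 0.34, while the median over all tested genes was -0.09. All 3 libraries labelled line 207 lay above all 3 labelled siblings for 22 members (27.2%, against 15.6% of all tested genes) and below them for 7 (8.64%, against 17.6%). Of the tested members, 3 (Pti5, Solyc01g008890 and Solyc06g068830) had no labelled sibling at 1 FPKM or more, so that they entered the test through labelled line 207 alone. A single one, Solyc09g007260, entered through the sibling-labelled libraries alone. Others, such as Solyc09g066360, ERF52 and Solyc08g078190, had 1 labelled sibling at 1 FPKM or more and so also needed labelled line 207 to enter. Solyc06g075510 needed the sibling-labelled libraries in the same way. The counts of direction rest in part on such genes. The summed level of the 169 genes was 1312, 1947 and 1978 FPKM in the sibling-labelled libraries and 2766, 2770 and 2396 FPKM in labelled line 207, and the groups did not overlap. Sibling replicate 1 had the lowest sum. It held the lowest labelled sibling value, alone or tied, for 48 of the 81 tested members (59.3%), against 38.5% of all tested genes. Ties, such as the 0 of Pti5 in all labelled siblings, went to replicate 1 and raise both shares. Without sibling replicate 1, 5 members were higher and 2 lower.

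**Figure D1:**
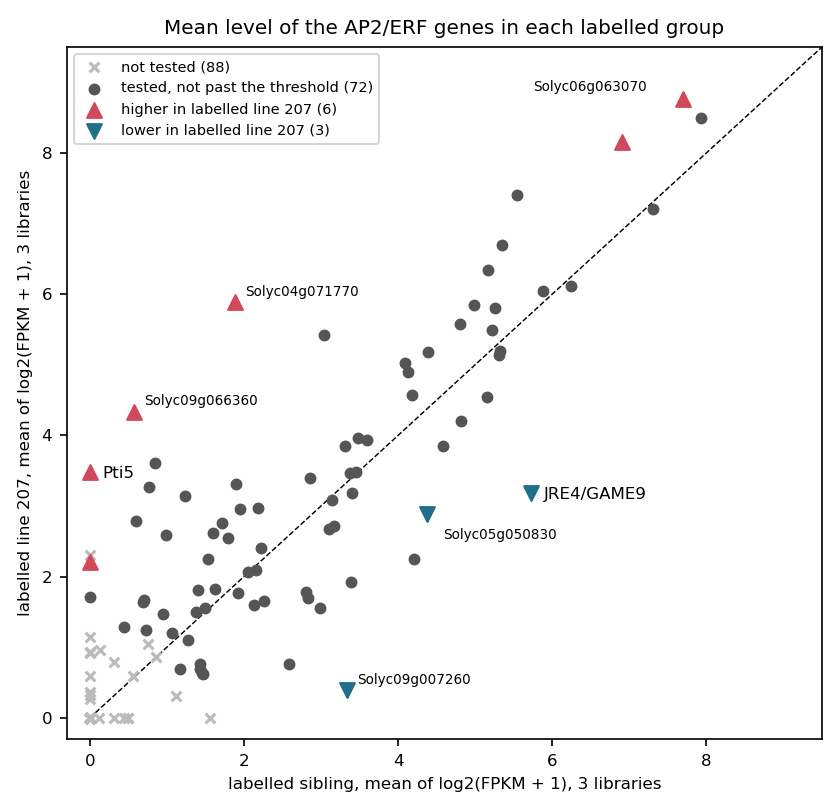
Mean of log2(FPKM + 1) over the 3 libraries labelled sibling (x axis) and the 3 labelled line 207 (y axis) for each of 169 AP2/ERF genes, with the dashed line marking equal levels. The 6 genes past the test as higher and the 3 as lower lie away from the line, and the 88 untested genes lie at low levels.

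Levels ranged widely within the family. In the sibling-labelled libraries 4 members averaged 100 FPKM or more, 27 averaged 10 to 100 and 47 averaged 1 to 10. The 5 most abundant members made up 44.9% to 46.6% of the family's summed FPKM in the sibling-labelled libraries and 52.0% to 55.5% in labelled line 207.

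The member with the smallest p was JRE4, also called GAME9 (Solyc01g090340), an ERF known from tomato as an activator of steroidal glycoalkaloid synthesis. It was at 51.0, 58.2 and 47.4 FPKM in the sibling-labelled libraries and at 8.84, 6.9 and 8.79 FPKM in labelled line 207. The groups were far apart and each was tight. The mean fell 6.38-fold, from 52.2 ± 5.51 to 8.17 ± 1.11 FPKM (SD, n = 3), with a log2 fold change of -2.54 ± 0.23 (SE) (limma adjusted p = 0.00289). The call held in each fit without a library (adjusted p at most 0.0196), and the authors' deposited table gives JRE4 a q of 0.000439. Its relatives JRE1, JRE2, JRE3 and JRE5 (Solyc01g090300, Solyc01g090310, Solyc01g090320 and Solyc01g090370), whose identifiers lie near its own, were listed at 0 in all 6 libraries.

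The genes of glycoalkaloid synthesis, listed by identifier, were lower in the same libraries. The list was chosen with earlier results of these data known, and any link from JRE4 to these genes was not tested. In the list 8 genes were tested, 6 were called lower and none higher, all 8 had a negative log2 fold change, and the median was -1.95 against -0.09 over all tested genes, of which 5.04% were called lower. All libraries labelled line 207 lay below all labelled siblings for 7 of the 8, against 17.6% of all tested genes. GAME6 (Solyc07g043460), a cytochrome P450 gene that acts early on the cholesterol skeleton, was at 478, 629 and 410 FPKM in the sibling-labelled libraries and at 137, 132 and 144 in labelled line 207. It fell 3.67-fold (log2 fold change -1.85 ± 0.19 (SE), adjusted p = 0.004). GAME11 (Solyc07g043420), a dioxygenase gene and the most abundant of the list, was at 3037, 3984 and 2683 FPKM against 1042, 1137 and 1267. It fell 2.82-fold (adjusted p = 0.0162). GAME7 (Solyc07g062520), another P450 gene, averaged 52.1 ± 22.8 FPKM under the sibling label and 11.1 ± 2.38 FPKM under the line 207 label (SD, n = 3), a 4.68-fold fall (adjusted p = 0.0166).

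The glycosyltransferase genes that add sugars to the alkaloid moved likewise. GAME1 (Solyc07g043490), a galactosyltransferase gene, was at 163, 256 and 150 FPKM in the sibling-labelled libraries and at 25.95, 21.3 and 38.5 in labelled line 207, a 6.63-fold lower mean (log2 fold change -2.69 ± 0.29 (SE), adjusted p = 0.00451). GAME18 (Solyc07g043500), a glucosyltransferase gene, was at 196, 293 and 282 FPKM against 45.9, 41.0 and 50.7, a 5.6-fold lower mean (adjusted p = 0.00219). GAME17 (Solyc07g043480), another glucosyltransferase gene, was 2.52-fold lower (adjusted p = 0.0158). The 2 genes without a call were GAME12 (Solyc12g006470), an aminotransferase gene at 532 ± 207 against 220 ± 70.4 FPKM (SD, n = 3; adjusted p = 0.0904), and GAME4 (Solyc12g006460), a P450 gene at 32.7, 46.6 and 44.1 FPKM against 7.59, 0.0993 and 35.4 (adjusted p = 0.211). GAME2 was at 1.2 FPKM or less and was not tested. The number called was 3 without sibling replicate 2, line 207 replicate 1 or line 207 replicate 2. The calls of GAME1, GAME6 and GAME18 held whichever library was left out. The glycosyltransferase genes share sequence, and reads of near-identical copies could be divided among them.

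**Figure D2:**
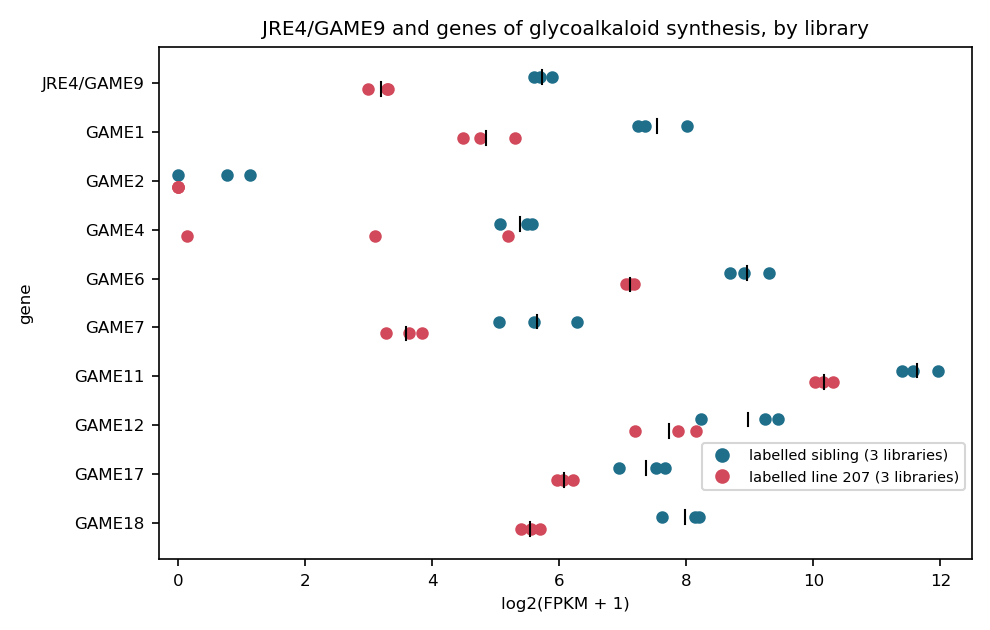
log2(FPKM + 1) of JRE4/GAME9 and 9 genes of glycoalkaloid synthesis in each library, with black ticks for the mean of each group without values near 0. For JRE4 and for 7 of the 8 tested synthesis genes the libraries labelled line 207 lie below all labelled siblings, and GAME4 overlaps through 1 library.

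Of the defence-associated members, Pti5 (Solyc02g077370) was among the genes that rose. The Pti proteins are ERFs of tomato named for binding the Pto kinase of resistance to bacterial speck. Pti5 was listed at 0 in all 3 labelled siblings and was at 15.4, 5.94 and 11.3 FPKM in labelled line 207 (log2 fold change 3.48 ± 0.52 (SE), adjusted p = 0.0105). It entered the test through labelled line 207 alone, and the size of this value rests in part on the pseudocount of 1. The authors' deposited table gives Pti5 a q of 0.00809. Pti4 (Solyc05g052050) was at 30.6, 133 and 103 FPKM against 87.5, 71.7 and 50.2, with overlapping groups and no call (adjusted p = 0.898). Pti6 (Solyc06g082590) was at 8.11 FPKM in sibling replicate 2, at 3.36 and 1.78 FPKM in line 207 replicates 1 and 3, and at 2.45e-05 FPKM or less in the other libraries (adjusted p = 0.95). ERF.B3 (Solyc05g052030), a neighbour of Pti4 by identifier, averaged 40.5 ± 13.8 and 37.4 ± 13.3 FPKM (SD, n = 3; adjusted p = 0.858).

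The most abundant members were ERF genes described as ethylene responsive transcription factor. Solyc06g063070 was at 180, 219 and 223 FPKM in the sibling-labelled libraries and at 477, 466 and 368 FPKM in labelled line 207. The group mean went from 207 ± 23.5 to 437 ± 60.2 FPKM (SD, n = 3), a 2.11-fold rise (log2 fold change 1.07 ± 0.18 (SE), adjusted p = 0.0142), a call lost without line 207 replicate 1 or 2 (adjusted p up to 0.0575). Solyc04g054910 was at 95.6, 161 and 109 FPKM against 347, 225 and 297, with every labelled line 207 value above the sibling-labelled libraries. It rose 2.38-fold (log2 fold change 1.26 ± 0.25 (SE), adjusted p = 0.0262) but lost its call without sibling replicate 1 or 3 or line 207 replicate 1 or 3 (adjusted p up to 0.0822). The authors' deposited table gives both genes a q of 0.000439.

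The other abundant members did not pass. ERF6 (Solyc01g065980), known from tomato for a role in ripening, was at 188, 258 and 295 FPKM against 295, 468 and 337, with overlapping groups (adjusted p = 0.206). The authors' deposited table gives ERF6 a q of 0.016. Solyc03g123500 averaged 161 ± 42.4 and 148 ± 33.1 FPKM (SD, n = 3; adjusted p = 0.818). Solyc04g007000, which lists a B3 domain, was at 12.9, 80.6 and 87.7 FPKM against 212, 192 and 117. All its labelled line 207 values were above the sibling-labelled libraries, sibling replicate 1 was far below the others, and the test was not passed (adjusted p = 0.146). The authors' deposited table gives Solyc04g007000 a q of 0.000439. ERF.E1 (Solyc09g075420), a less abundant ERF, averaged 40.4 ± 15.7 and 34.3 ± 4.06 FPKM (SD, n = 3; adjusted p = 0.753).

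Another 3 ERF genes rose from low values. Solyc04g071770 was at 0.00671, 4.58 and 7.95 FPKM in the sibling-labelled libraries and at 53.8, 65.6 and 56.2 FPKM in labelled line 207 (log2 fold change 4.01 ± 0.77 (SE), adjusted p = 0.023). Its call was lost without sibling replicate 2 or line 207 replicate 1, 2 or 3 (adjusted p up to 0.0801), and with 0.1 in place of 1 as pseudocount (adjusted p = 0.0966). Solyc09g066360 was at 0, 0 and 2.3 FPKM against 20.3, 23.4 and 14.9 (log2 fold change 3.76 ± 0.62 (SE), adjusted p = 0.0138), a call lost without line 207 replicate 2 (adjusted p = 0.0564). The authors' deposited table gives it a q of 0.25. With 1 labelled sibling at 1 FPKM or more, Solyc09g066360 needed labelled line 207 to enter the test. Solyc01g008890 was at 3.65e-05 FPKM or less in the sibling-labelled libraries and at 4.57, 3.02 and 3.36 FPKM in labelled line 207 (adjusted p = 0.0276), through which alone it entered the test. This low gene lost its call in each fit without a library (adjusted p at most 0.093).

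**Figure D3:**
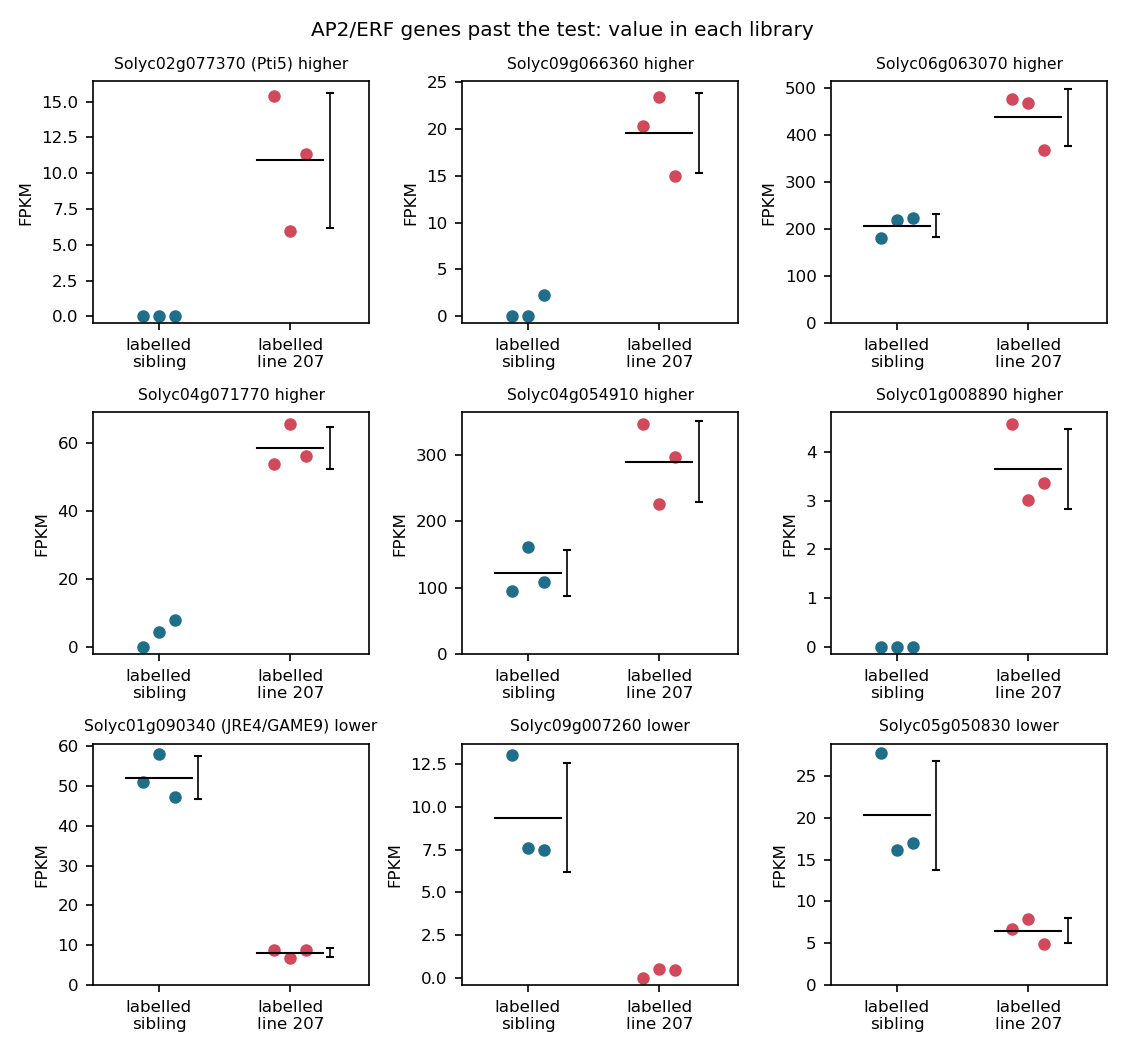
FPKM of the 9 AP2/ERF genes past the test in each of the 3 libraries labelled sibling and the 3 labelled line 207, with horizontal lines for means and bars for SD where no value is near 0. In all 9 panels the groups do not overlap, which follows largely from choosing genes by the test. Of all tested genes, 15.6% had all labelled line 207 values above and 17.6% below. Pti5 is listed at 0 in every labelled sibling.

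A further group of ERF genes had positive fold changes and missed the call. Solyc02g093130 was at 30.0, 45.5 and 31.1 FPKM in the sibling-labelled libraries and at 101, 96.9 and 52.3 in labelled line 207 (adjusted p = 0.0577). Solyc03g093610 averaged 20.1 ± 3.8 and 35.3 ± 1.01 FPKM (SD, n = 3; adjusted p = 0.0653), and Solyc10g006130 averaged 32.2 ± 13.1 and 56.7 ± 3.52 (SD, n = 3; adjusted p = 0.111). Solyc07g053740 was at 22.5, 51.4 and 54.4 FPKM against 74.9, 105 and 136 (adjusted p = 0.0736). In the authors' deposited table the q is 0.0463 for Solyc03g093610, 0.0288 for Solyc10g006130 and 0.000439 for Solyc07g053740. In these 4 genes all labelled line 207 values lay above, as in 15.6% of all tested genes. The 4 were named for their small p, which favours such separation. Solyc06g068830 was listed at 0 in the sibling-labelled libraries and was at 3.11, 2.4 and 1.5 FPKM in labelled line 207 (adjusted p = 0.0619). Solyc08g078190 was at 0, 0 and 4.75 FPKM against 10.5, 9.71 and 13.8 (adjusted p = 0.0693), and Solyc04g078640 was at 0, 3.94 and 0 FPKM against 8.36, 6.31 and 12.1 (adjusted p = 0.0835). Solyc02g077840 averaged 27.4 ± 5.41 and 47.7 ± 10.8 FPKM (SD, n = 3; adjusted p = 0.102).

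By the q of the authors' deposited table, 10 of the 38 members with a p below 1 passed at 0.05. Of these, 9 were higher and 1 was lower by the means. Among all genes with a p below 1 in the authors' deposited table, the shares were 12.8% for higher and 15.6% for lower. The test used here and the authors' deposited table share 5 calls among the members.

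Of members with known developmental roles, none passed the test. ERF52 (Solyc03g117130), which acts in flower stalk abscission in tomato, was at 2.49, 0 and 0 FPKM in the sibling-labelled libraries and at 6.48, 4.97 and 6.31 in labelled line 207 (adjusted p = 0.0788). Its groups did not overlap. SHN1 (Solyc03g116610), of the clade known for wax and cuticle synthesis, was at 3.77, 4.71 and 12.2 FPKM against 4.87, 0 and 4.87 (adjusted p = 0.458). SHN2 (Solyc12g009490) was above 0 in line 207 replicate 1 alone, at 5.7 FPKM. LEAFLESS (Solyc05g013540), needed for leaf initiation in tomato, was at 5.08, 2.49 and 0 FPKM against 2.59, 0 and 0 (adjusted p = 0.588). ENO (Solyc03g117230), which limits floral meristem size in tomato, was listed at 0 in every library, as was CBF3 (Solyc03g026270) of the cold response. The single member named a dehydration-responsive element binding protein, Solyc06g033850, was also listed at 0 throughout.

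The lower ERF gene besides JRE4 was Solyc05g050830, described as ethylene-responsive transcription factor 4. It was at 27.7, 16.1 and 17.0 FPKM in the sibling-labelled libraries and at 6.68, 7.9 and 4.91 in labelled line 207. It fell 3.12-fold (log2 fold change -1.48 ± 0.36 (SE), adjusted p = 0.0476), a call lost in each fit without a library (adjusted p at most 0.127). The authors' deposited table gives it a q of 0.0786. The name is shared by 26 members, of which 17 were tested, 1 was lower and none was higher. Among all tested genes 5.04% were lower and 5.01% higher.

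The AP2-like members, which act mostly in growth, had other counts of direction than the ERF members. Both groups go by name, so the ERF members include CBF3 of the cold response and Solyc04g007000, which lists a B3 domain. Of 140 ERF members 66 were tested, with 6 higher, 2 lower, 44 positive fold changes and a median of 0.5. Of 22 AP2-like members 13 were tested, with none higher, 1 lower, 6 positive fold changes and a median of -0.15. Of all tested genes, 5.01% were higher, 5.04% lower and 46.0% had a positive log2 fold change, with a median of -0.09. The difference between these name groups was not tested. Solyc09g007260 was at 13.0, 7.61 and 7.45 FPKM in the sibling-labelled libraries and at 6.33e-05, 0.524 and 0.481 in labelled line 207 (log2 fold change -2.94 ± 0.5 (SE), adjusted p = 0.0158). Its call was lost without sibling replicate 2 (adjusted p = 0.0534), and the authors' deposited table gives it a q of 1, the mark of a gene not tested. ANT (Solyc04g077490), the counterpart of an Arabidopsis gene that promotes organ growth, was at 6.33, 6.04 and 5.71 FPKM under the sibling label and at 2.2, 2.3 and 2.88 under the line 207 label. Its groups did not overlap and the means differed 2.45-fold, without a call (adjusted p = 0.189). Solyc06g068570 lay the other way, at 0.658, 1.66 and 0.771 FPKM under the sibling label and at 4.64, 5.36 and 5.12 under the line 207 label, also without a call (adjusted p = 0.0802). The summed level of the 22 AP2-like genes was 69.5 to 73.1 FPKM in the sibling-labelled libraries and 53.6 to 62.6 in labelled line 207.

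**Figure D4:**
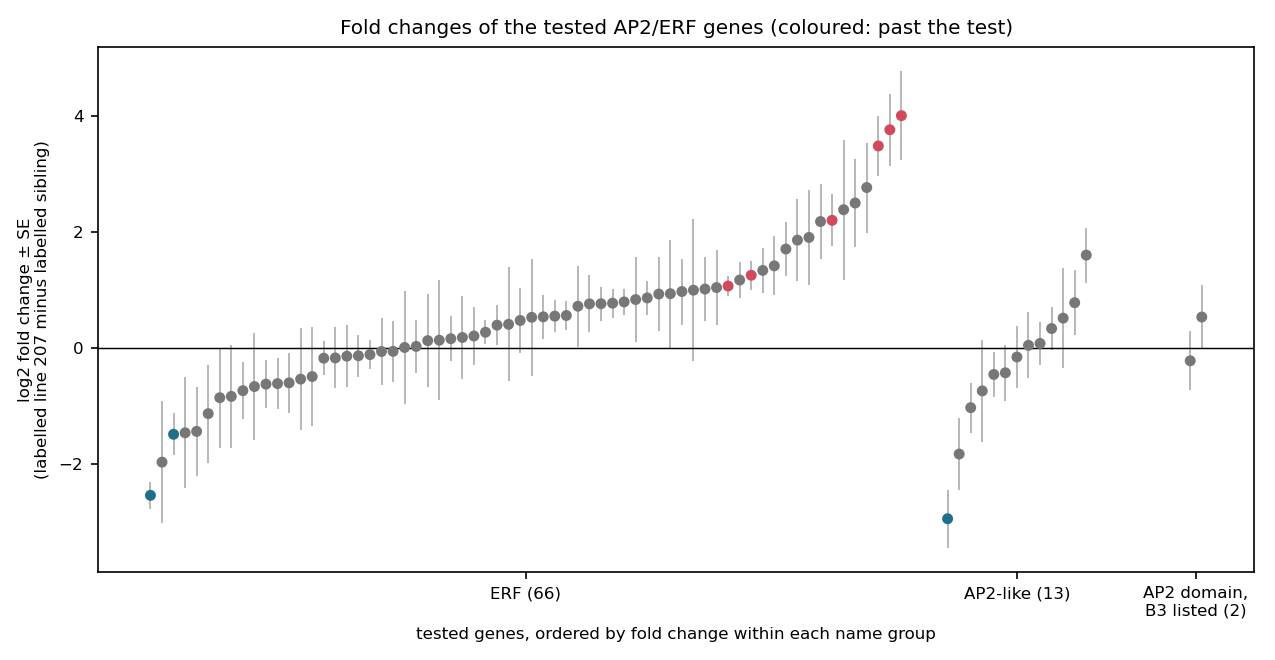
Log2 fold change ± SE (labelled line 207 minus labelled sibling, on the log2(FPKM + 1) scale) of the 81 tested genes, ordered within the name groups. Of the 66 ERF genes 44 lie above 0, and of the 13 AP2-like genes 6 do. Of all tested genes, 46.0% had a positive log2 fold change.

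The members that list a B3 domain, as RAV proteins of other plants do, were 6, and 3 of them were tested. Solyc04g007000 is given above. Solyc10g075030 was at 6.14, 6.66 and 6.05 FPKM against 19.8, 4.47 and 9.33 (adjusted p = 0.59), and Solyc06g082520 was at 4.53, 13.5 and 13.5 FPKM against 9.87, 5.63 and 9.3 (adjusted p = 0.827). The untested Solyc02g079020 was near 0 in the sibling-labelled libraries and at 10.4, 0.0124 and 9.42 FPKM in labelled line 207.

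Many members lie beside each other in the table, which is ordered by identifier. There were 17 runs of neighbouring members with 42 genes. Of these genes, 24 (57.1%) were listed at 0 in every library, against 42 of the 127 members outside runs (33.1%). Among all 34723 genes with values, 12373 were listed at 0 throughout. In 9 runs no gene was tested, in 6 runs 1 gene was tested and in 2 runs 3 genes were. Pti5 and Solyc01g008890 each had 1 such neighbour, and Solyc09g066360 had 2. The neighbours Solyc02g077360, Solyc09g066340 and Solyc09g066350 were listed at 0 throughout, and Solyc01g008880 reached 1.81 FPKM in sibling replicate 1 alone. In the run of Pti4, Solyc05g052040 and ERF.B3, all 3 genes were above 6 FPKM in every library and none was called. In the run from Solyc03g093530 to Solyc03g093560, the first gene was listed at 0 and the other 3 overlapped between groups. Neighbouring copies can share reads, so the split of signal within a run is less certain than its sum.

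A list of ethylene synthesis and signalling genes was taken by identifier, with earlier results of these data known. Any link from these genes to the members was not tested. Of 26 genes 21 were tested, 2 were higher and none lower, 19 had a positive log2 fold change and the median was 1.07. Over all tested genes 5.01% were called higher, 46.0% had a positive log2 fold change and the median was -0.09. The calls were those of the ethylene-forming oxidase gene ACO1 (Solyc07g049530; log2 fold change 8.05, adjusted p = 0.000504) and the transcription factor gene EIL3 (log2 fold change 1.62, adjusted p = 0.00588). ACO1 was at 0.012, 0.2 and 0.0447 FPKM in the sibling-labelled libraries and at 155, 441 and 341 in labelled line 207, so it entered the test through labelled line 207 alone and the size of its fold change rests in part on the pseudocount of 1. In the authors' deposited table its q is 0.32, above the threshold. ACO3 (Solyc07g049550) was at 24.2, 294 and 362 FPKM in the sibling-labelled libraries and at 1070, 1347 and 934 in labelled line 207 (adjusted p = 0.0972), with sibling replicate 1 again far below the others. The F-box genes EBF1 (Solyc12g009560) and EBF2 (Solyc07g008250), whose products degrade EIN3-like factors, showed the same order of replicates. EBF1 was at 35.5, 112 and 147 FPKM against 164, 187 and 134 (adjusted p = 0.294). EBF2 was at 29.0, 78.2 and 99.5 FPKM against 114, 164 and 116 (adjusted p = 0.182), and its groups did not overlap. EIL1 (Solyc06g073720) was at 0.00395, 0.000453 and 13.6 FPKM against 36.8, 38.8 and 4.62 (adjusted p = 0.181). The authors' deposited table calls 6 of the 26 genes higher, EBF1 and EBF2 with a q of 0.00334 and 0.00361 among them. Among all genes with a p below 1 there, 12.8% were called higher. The 26 include genes marked there as not tested, such as ACS4 and EIN2.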

How the data were processed

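The deposited table gives each gene's abundance in each library. Its header names no unit. FPKM was inferred for these deposited values, which have decimals and differ in their sums, from the tools TopHat 1.3.2 and Cufflinks listed per the submitters' processing notes. Genome build, annotation and scaling: not given in the sources used here. Depth in reads is unknown. Next to the abundances stand the authors' p-value and q-value, set to 1 where no test was made. Of 34727 rows, 4 held no values. Such estimates can divide reads among near-identical genes.

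The test was limma (version 3.58.1, R 4.3.3) applied to log2(FPKM + 1), with a prior following the mean level, for the 15766 genes at 1 or more in 3 or more libraries, with Benjamini-Hochberg adjustment over all of them and a threshold of 0.05. The fit was tested on simulated data. Log2 fold changes use log2(FPKM + 1) and so understate changes of low genes, and linear folds are ratios of group means. The series calls the libraries biological replicates. Groups and replicate numbers come from the labels.

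Members, gene lists and tests were chosen with earlier results of these data known. Named are all called members, the 10 uncalled with the smallest p, the 5 most abundant, those of smallest deposited q and those with literature names. Literature names were matched to identifiers from memory, not from the table. Identifiers are given without their version suffix. The reference gene table matched 0 of them, so no coordinates or sequences are given. Alternatives were other filters, pseudocounts, scalings and priors, the deposited q, a replicate block and each library left out.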

Additional observations from a re-analysis of the deposited data

How the results depend on the processing

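The number of members higher in labelled line 207, 6 in the main analysis, was 5 to 9 over the alternatives that keep every library and 2 to 6 with 1 library left out. The number lower, 3, was 1 with the replicate block and 1 by the authors' deposited q, 2 or 3 under the other settings that keep every library, and 1 to 2 with 1 library left out. The glycoalkaloid genes lower, 6, ranged from 3 to 6 with 1 library left out, and none was higher under any setting run. The ethylene genes higher, 2, were 6 by the authors' deposited q. Leaving out a library also leaves fewer samples. Same-numbered libraries did not deviate together (correlations of 0.004, -0.0081 and -0.0105), so the block is no evidence of pairing.

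Signs changed for 5 uncalled members with small differences. Solyc03g123500 was at 0.027 on the log2 scale with quantile normalization. With 1 library left out it ranged from -0.30 to 0.081, ERF.B3 (Solyc05g052030) from -0.35 to 0.20, Pti4 (Solyc05g052050) from -0.77 to 0.27, Pti6 (Solyc06g082590) from -0.39 to 1.2 and ERF.E1 (Solyc09g075420) from -0.39 to 0.12. Over the 29 named members tested, the settings that keep every library left direction and call as they were in 169 comparisons, ended a call in 12, added one in 9 and changed a sign in 1. Depth limits the low members most. By the rough estimates above, line 207 replicates 1 and 2 were at 0.384 and 0.497 of the depth of sibling replicate 1.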

Other observations

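Some genes of the family carry names outside the words used and so were not counted as members. SHN3 (Solyc06g053240), a cuticle-associated gene of tomato described as an AP2 transcription factor, measured 7.0, 15.2 and 8.21 FPKM under the sibling label and 0, 2.07 and 0 FPKM under the line 207 label. All 3 line 207 values were the lower ones (log2 fold change -2.87 ± 0.65 (SE)), and limma gave an adjusted p of 0.0369. The cold-response genes CBF1 (Solyc03g026280) and CBF2 (Solyc03g124110) were too low to be tested. CBF1 was at 2.07, 0 and 2.46 FPKM and CBF2 at 0, 0 and 1.38 FPKM under the sibling label. Both were listed at 0 under the line 207 label.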
